A study of Mus musculus with 8 samples.

Results

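The fatty acid elongases and the desaturases of the Fads family were followed in the subcutaneous white fat of the groin (inguinal pad) of mice, with and without the histone demethylase Lsd1. They were chosen by gene name, as Elovl1 to Elovl7 and Fads1 to Fads3, and the name alone identified 1 RefSeq accession for each, so that all 10 genes were found among 23360 genes in the files. The family was taken up with earlier results of the same libraries known, among them the high level of Elovl4 in the knockout. RNA was sequenced from 4 Lsd1 KO libraries, made from 6-week-old mice that carried floxed Lsd1 alleles and the Adipoq-Cre transgene, and from 4 Control libraries, made from mice of the same age with the floxed alleles alone. Adipoq-Cre is active in adipocytes, so the other cells of the pad keep Lsd1. No group carried Adipoq-Cre with intact Lsd1, so the Cre transgene and the loss of Lsd1 cannot be told apart. Strain, sex and whether each library came from a separate mouse were not given in the sources used here, and p-values therefore measure the spread between libraries, which may be technical.

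Elongases sit in the endoplasmic reticulum and catalyse the condensation step that lengthens a fatty acyl-CoA by a pair of carbons, and each member prefers chains of a certain length and saturation. Fads1 and Fads2 insert a double bond near the carboxyl end of polyunsaturated chains, and alternate with Elovl5 and Elovl2 on the route from linoleic and alpha-linolenic acid to arachidonic and docosahexaenoic acid. In white fat Elovl6 works next to fatty acid synthase in turning palmitate into stearate, and Elovl3 is known as a gene that rises when brown or beige fat is active.

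Elovl4, which extends very long-chain saturated and polyunsaturated acids in retina, brain and skin, rose most of the tested members, and the sequence just before its transcription start is shown for that reason. It holds 250 bases ending at the base before the start, from the RefSeq promoter table of GRCm38.p6, at chr9:83806306-83806555 on the minus strand. Capitals mark the GC box (GGGCGG on either strand), a short motif found in 32.7% of all 32851 promoter windows of this length.
Elovl4: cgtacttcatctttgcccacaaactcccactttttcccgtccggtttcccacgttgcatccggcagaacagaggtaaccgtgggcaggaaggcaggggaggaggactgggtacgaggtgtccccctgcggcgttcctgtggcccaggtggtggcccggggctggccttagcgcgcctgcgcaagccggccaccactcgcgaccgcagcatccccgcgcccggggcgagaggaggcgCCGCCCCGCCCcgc
The window held 69.6% G and C and 25 CpG pairs, against medians of 52.4% and 6 over all windows. The marked run holds overlapping copies of the motif. The window did not hold the sterol regulatory element (TCACNCCAC, in 1.05% of windows), the E-box CACGTG (6.02%), CCAAT (33.9%), TATAAA (12.4%) or the left part of the REST-binding element (TTCAGCACC, 0.301%), each searched on both strands. A window was in the table for 8 of the 10 genes. That of Fads2 is not printed, because 243 of its 250 bases lie in an annotated exon.

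The libraries held 25671837 to 32442724 recovered reads. Values below are the authors' scaled read counts ("scaled reads"), in which each read counts for 0.442 to 0.545 depending on the library. Each fold change is the knockout mean less the control mean of log2(value + 1), with the limma adjusted p over 14591 genes, and a gene was called below 0.05. Kdm1a, the gene of Lsd1, averaged 568 ± 15.4 scaled reads in knockouts and 729 ± 51.1 in controls (SD, n = 4 each), with no overlap between the groups (log2 fold change -0.36, adjusted p = 0.0498). That call was lost in 18 of 22 other settings, among them each fit without 1 library (adjusted p 0.0579 to 0.152). Which exons were deleted was not given in the sources used here. The summed level of 9 adipocyte markers was 318575 to 351911 in knockouts and 429729.6 to 542292 in controls, a sum in which Cfd and Fabp4 had the most scaled reads. Of these markers 1 passed, Cidec, which fell by 1.01 on the log2 scale (limma adjusted p = 0.00179). Fabp4 (-0.39), Lipe (-0.27) and Cfd (-0.60) did not pass but were lower in every knockout library than in any control. Adipoq, Plin1, Lep, Retn and Pnpla2 overlapped between the groups, and Retn, at 0.11, was the only marker above 0. For any of their transcripts, fewer adipocytes and less RNA per adipocyte cannot be told apart in whole tissue. Skeletal muscle markers summed to 162662, 151532 and 94160.5 in knockout replicates 1, 2 and 4, against 10489 in knockout replicate 3 and 6979 to 31119.9 in controls. The 9 skin and sebaceous gland markers in the files summed to 1553 and 543 in knockout replicates 1 and 2, 172 and 101 in knockout replicates 3 and 4, and 109 to 151 in controls. B cell markers summed to 9007 to 12559 in knockouts and 5852 to 12444 in controls. Mammary epithelium markers summed to 172 to 279 in knockouts and 118 to 188 in controls. None of the 4 tested mammary markers passed, but Cldn3 (37.2 to 56.7 in knockouts, 20.01 to 32.8 in controls) and the untested Cldn7 (7.63 to 18.6 in knockouts, 0 to 3.92 in controls) did not overlap between the groups, and the milk protein gene Wap was at 0 in every library. The mammary score, a mean over all 10 markers, includes those too low to test. With it as a covariate in limma Elovl4 (3.14, adjusted p = 0.0137) and Fads2 (1.24, adjusted p = 0.0391) passed. With the B cell score Elovl4 passed (3.29, adjusted p = 0.00524) and Fads2 did not. The part of these cell types in the results was not tested. Control replicates 1 and 2 carry the numbers 518 and 517 in their titles and the other 6 libraries 356 to 361, and what these numbers mark was not given in the sources used here. Without control replicates 1 and 2 the log2 fold change was 3.25 for Elovl4 (adjusted p = 0.0119) and 1.18 for Fads2 (adjusted p = 0.0150).

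Transcripts of the family differed unevenly between the genotypes. Elovl4 rose 9.99-fold on the fitted scale and Fads2, the enzyme of the first desaturation of linoleic and alpha-linolenic acid, rose 2.13-fold. Fads1, the next desaturase of the same route, was higher in every knockout library than in any control but did not pass the test. The abundant elongases Elovl6, Elovl5 and Elovl1 did not pass, nor did Elovl3, Elovl7 and Fads3, and Elovl2 was too low to test. The 2 genes called were the only ones among the 9 that passed the filter on low values, where 1.64% of all tested genes were called, 1.28% as higher. The count is a description, since the family was taken up with it known. Elovl4 reached 10 scaled reads only in the knockouts (2.46 to 4.39 in controls). It thus passed the filter through the group where it was high, and its place in the counts and ranks here rests on that.

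**Figure D1:**
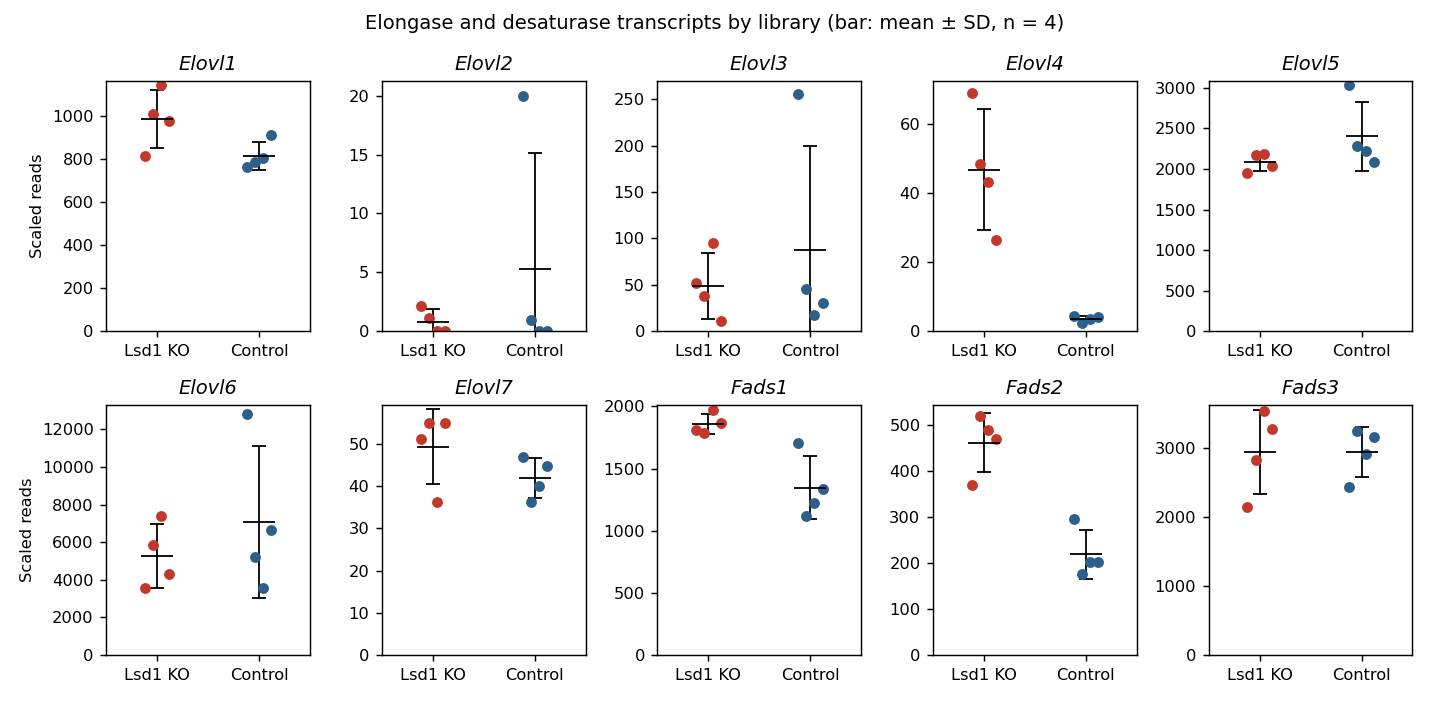
Scaled reads (linear axis from 0) of the 7 elongases and 3 desaturases in each library, Lsd1 KO in red and Control in blue, with the mean and SD (n = 4). The groups are apart for Elovl4, Fads1 and Fads2, and a single control library stands high for Elovl2, Elovl3 and Elovl6.

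Elovl4 was close to the limit of detection in controls and measurable in every knockout library. It had 69.3, 48.4, 43.4 and 26.5 scaled reads in knockout replicates 1 to 4, against 4.39, 2.46, 3.43 and 4.13 in control replicates 1 to 4. Every knockout library was above every control, and the lowest knockout value was several times the highest control value. In recovered reads these were 127, 89, 98 and 53 in knockouts and 9, 5, 7 and 8 in controls. The log2 fold change was 3.32 (SE 0.32, 95% interval 2.61 to 4.04, limma adjusted p = 0.000865), and the means stood in a ratio of 13.0. Only 5 of the 187 genes called as higher had a larger log2 fold change. The gene (NM_148941, chromosome 9 from 83778692 to 83806305 in GRCm38.p6, minus strand, 6 exons) shares no exon base with another annotated gene.

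Skin expresses Elovl4, and the order of the knockout libraries in Elovl4 was the order of their skin markers. Of the 9 skin and sebaceous gland markers in the files 2 were tested and none passed. Krt5 and Krt14, keratins of the basal epidermis chosen after their values were seen, were at 237 and 137 scaled reads in knockout replicate 1 and at 82.2 and 39.7 in replicate 2. Both were at 0 in knockout replicates 3 and 4, where Elovl4 was at 43.4 and 26.5. Of the same list Krt79 was at 90.7 and 29.0 in these libraries, against 42.5 to 69.0 in controls. Krt10 was at 69.0 and 61.9 there, against 52.7 to 78.9 in controls. Krt5 was at 0.49, 0, 0 and 0 and Krt14 at 0, 0.98, 0 and 0 in control replicates 1 to 4. Without knockout replicates 1 and 2 the log2 fold change of Elovl4 was 2.94 (adjusted p = 0.0248), and with the skin score as a covariate it was 2.94 (adjusted p = 0.00699). In knockout replicate 3 alone, whose muscle markers lay within the control range, the log2 fold change against the controls was 3.29 with an adjusted p of 0.0918, in a fit that assumes this library to vary as the controls do. The whole skin list summed to 172 and 101 in knockout replicates 3 and 4, against 109 to 151 in controls. The part of skin in the Elovl4 result was not tested. Over the nerve and Schwann cell list 2 of 5 tested markers rose, S100b (2.76, limma adjusted p = 0.000488) and Syp (0.73, adjusted p = 0.0432). The part of nerve in the Elovl4 result was not tested.

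**Figure D2:**
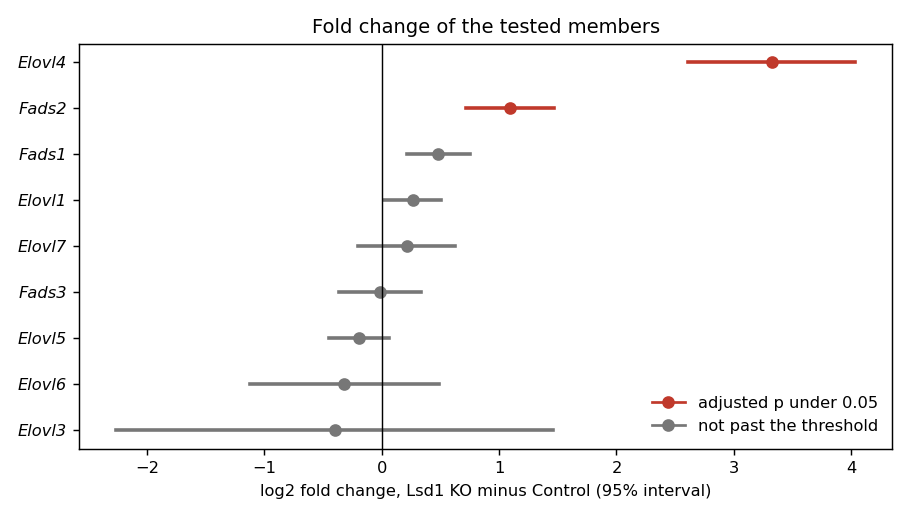
Log2 fold change (knockout minus control) of the 9 tested members with 95% intervals, red where the limma adjusted p was under 0.05. Elovl4 at 3.32 and Fads2 at 1.09 are the 2 called genes, and the intervals of Elovl3 and Elovl6 are the widest.

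The desaturases formed a graded set. Fads2 had 371, 519.7, 489.7 and 469.8 scaled reads in knockout replicates 1 to 4, against 296, 175, 202 and 202 in control replicates 1 to 4. The groups did not overlap, and knockout replicate 1 and control replicate 1 came nearest to each other. Fads2 rose by a log2 fold change of 1.09 (SE 0.17, 95% interval 0.72 to 1.47, limma adjusted p = 0.0126), with means of 462 ± 64.5 in knockouts and 219 ± 53.1 in controls (SD, n = 4 each). Its fold change stayed between 0.997 and 1.25 over 22 other settings, but it no longer passed when knockout replicate 2 (adjusted p = 0.0532) or knockout replicate 4 (0.0565) was left out, with the B cell score as a covariate (0.0515), and without knockout replicates 1 and 2 together (0.0623).

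Fads1, which makes arachidonic acid from its precursor, had 1814, 1783, 1970.2 and 1865 scaled reads in knockout replicates 1 to 4, against 1703, 1120.5, 1219.7 and 1338 in control replicates 1 to 4. All knockout libraries were higher, but control replicate 1 lay just below them. Its fitted log2 fold change was 0.48 (SE 0.12, 95% interval 0.22 to 0.75, limma adjusted p = 0.0959). Without control replicate 1 it was 0.60 and passed (adjusted p = 0.0159), as it did with DESeq2 (0.44, 0.0290) and without control replicates 1 and 2 together (0.54, 0.0488). The groups of 3 members, Elovl4, Fads1 and Fads2, did not overlap, each with the knockouts higher, as was the case for 5.06% of all tested genes (8.65% in either direction). Relative to Fads1, Fads2 per kilobase stood at 22.5 to 32.0 per 100 in knockouts and at 16.6 to 19.1 per 100 in controls, without overlap.

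Fads3, which acts on sphingoid bases, was level between the genotypes. It had 2137, 2822, 3530.3 and 3269 scaled reads in knockouts and 2429, 3236, 2913 and 3152 in controls. The ranges overlapped throughout, and the fitted log2 fold change of -0.01 had a 95% interval from -0.36 to 0.34 (limma adjusted p = 0.979). Its sign turned in 8 of 22 other settings.

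These 3 desaturase genes lie next to each other on chromosome 19, from 10040855 to 10196874 in GRCm38.p6, a stretch of 156020 bases. Fads3 is followed by Fads2 after 2651 bases and Fads2 by Fads1 after 81373 bases, with Fads2 on the minus strand and the others on the plus strand. Of the 3 tested neighbours on the Fads3 side none passed (Rab3il1 at -0.04, Best1 at -0.12 and Fth1 at 0.00, where the log2 fold change was -0.0021). On the Fads1 side Fen1 was at 0.14 and Tmem258 at 0.30, and Myrf, a myelin regulatory factor, was at 1.19 (SE 0.26, limma adjusted p = 0.0636) from a low level of 20.4 scaled reads in knockouts and 8.42 in controls. Around Elovl4 the next tested gene on each side did not pass (Sh3bgrl2 at 0.46 and Ttk at -0.14). Hmgn3, a nucleosome-binding protein gene and the third tested gene on the Sh3bgrl2 side, rose to 616 scaled reads in knockouts, against 341 in controls (log2 fold change 0.84, SE 0.098, adjusted p = 0.00263).

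**Figure D3:**
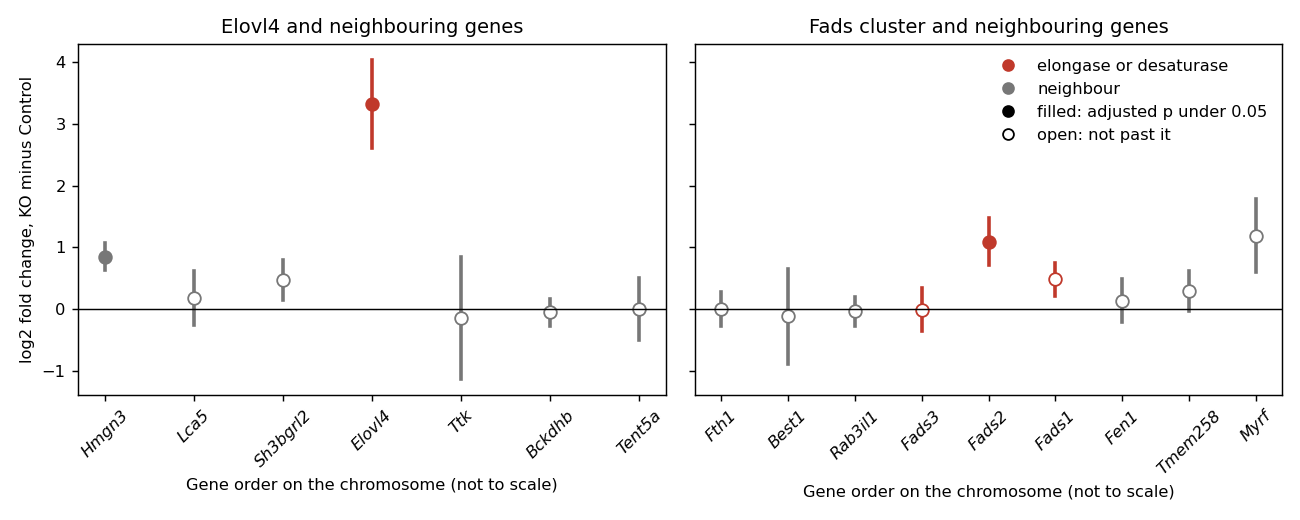
Log2 fold change with 95% intervals for Elovl4 and for the Fads genes (red) and their 3 nearest tested protein-coding neighbours on each side (grey), in chromosome order. Filled points passed the test: Elovl4, Hmgn3 and Fads2.

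None of the 3 elongases with the highest level per kilobase passed the test. Elovl6 had 3569, 5825, 7378 and 4322 scaled reads in knockouts and 12820.2, 5227, 3580.2 and 6670.5 in controls. Control replicate 1 was the highest, and the other 3 controls lay inside the range of the knockouts. The log2 fold change was -0.32 with a 95% interval from -1.12 to 0.48 (limma adjusted p = 0.733), and without control replicate 1 it was 0.02.

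Elovl5, which lengthens polyunsaturated chains between the Fads steps, had 1949.6, 2167, 2180.3 and 2039 scaled reads in knockouts and 3030.45, 2289, 2221 and 2083 in controls. The knockout libraries lay close together, and control replicate 1 was again the highest. Its log2 fold change was -0.19 (95% interval -0.45 to 0.06, limma adjusted p = 0.487).

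Elovl1, which supplies saturated very long-chain acids for ceramides, had 815, 1010.03, 1145 and 977 scaled reads in knockouts and 764, 786, 805 and 912 in controls. Here 3 knockout libraries were above every control and knockout replicate 1 was not. The log2 fold change was 0.26 (95% interval 0.02 to 0.51), with a limma adjusted p of 0.304. In GRCm38.p6 Elovl6 (NM_130450) lies on chromosome 3 from 129532386 to 129638495, Elovl5 (NM_134255) on chromosome 9 from 77917365 to 77984519 and Elovl1 (NM_019422) on chromosome 4 from 118426874 to 118432953, all on the plus strand. Elovl1 shares 53 exon bases with Cdc20 on the other strand, where reads cannot be assigned without strand information.

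Control replicate 1 held the highest level of Elovl6, Elovl5 and Elovl3 and also of 6 of the 11 tested genes of fatty acid synthesis supply, while it held the highest level of 10.5% of all tested genes. Only those 6 supply genes are followed below. Of the rest, Acaca and Thrsp were highest in knockout replicate 3, Mlycd and Mcat in control replicate 2 and Oxsm in control replicate 4. Relative to each gene's mean over the 8 libraries, Elovl6 stood at 2.08 in control replicate 1, Me1, the malic enzyme that supplies NADPH, at 2.57, the citrate carrier gene Slc25a1 at 1.99, Acly, the ATP citrate lyase, at 1.91, the acetyl-CoA synthetase gene Acss2 at 1.88, the acetyl-CoA carboxylase gene Acacb at 1.77 and Fasn, the fatty acid synthase, at 1.51. In knockout replicate 3 the same genes stood at 1.20 for Elovl6, 1.30 for Me1, 1.20 for Slc25a1, 1.52 for Acly, 1.28 for Acss2 and 1.25 for Fasn, but at 0.74 for Acacb. The knockout library with the highest Elovl6 was thus above the mean for 5 of these 6 genes and below it for Acacb. In knockout replicate 1 these genes and Elovl6 were all below their means, between 0.36 for Me1 and 0.81 for Fasn.

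**Figure D4:**
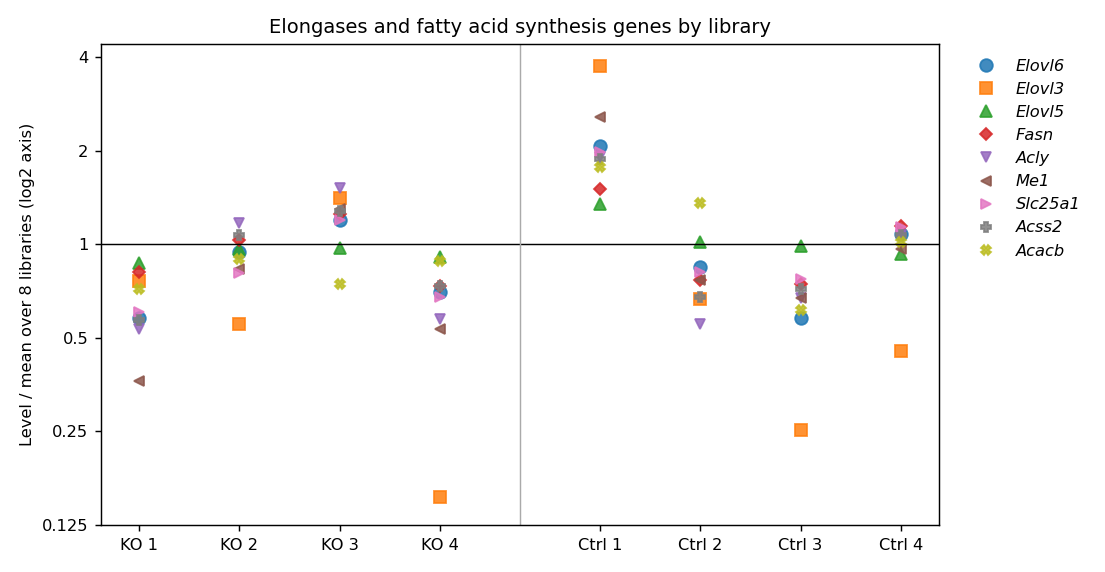
Level of 3 elongases and 6 fatty acid synthesis genes in each library, divided by the gene's mean over the 8 libraries (log2 axis). Control replicate 1 stands highest for every gene drawn, with Elovl6 at 2.08 and Elovl3 at 3.76. For the 6 synthesis genes this follows from the choice, since they are the tested ones of their list that were highest there.

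Elovl3 varied most among the tested members. Elovl3, which makes saturated and monounsaturated very long-chain acids in brown fat and sebaceous glands, had 51.8, 37.5, 95.5 and 10.5 scaled reads in knockouts and 256, 45.2, 17.1 and 30.9 in controls. The highest and the lowest values differed 9.12-fold within the knockouts and 14.9-fold within the controls. The log2 fold change of -0.40 had a 95% interval from -2.26 to 1.46 (limma adjusted p = 0.867), and its sign turned in 6 of 22 other settings. Ucp1, the uncoupling protein of thermogenic fat, had 167, 1369.8, 4732 and 447 scaled reads in knockouts and 3189, 1639, 384 and 756 in controls. Control replicate 1 and knockout replicate 3 were the highest libraries for both genes within their genotype, and knockout replicate 4 and control replicate 3 the lowest for Elovl3. Ucp1 was set beside Elovl3 after its values were seen, and most other thermogenic markers were ordered otherwise among the controls. Within the knockouts Cidea, Dio2, Cox8b, Ppargc1a and Otop1 were also highest in knockout replicate 3, and Cox7a1 and Prdm16 in knockout replicate 2. Among the controls Cidea, Cox7a1, Cox8b and Ppargc1a were highest in control replicate 2, and Dio2 and Prdm16 in control replicate 4. Otop1 was highest in control replicate 1. Its groups did not overlap (758 to 1860 scaled reads in knockouts, 241 to 638 in controls), with a log2 fold change of 1.51 (limma adjusted p = 0.108). None of the 8 brown and beige adipocyte markers passed the test. Elovl3 shares 10 exon bases with Pitx3 on the other strand.

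Elovl7, which acts on saturated long chains, had 51.3, 54.96, 36.3 and 54.9 scaled reads in knockouts and 46.9, 36.4, 40.1 and 44.9 in controls. Knockout replicate 3 was the lowest library of all, and the ranges overlapped. A log2 fold change of 0.21 was fitted (95% interval -0.20 to 0.63, limma adjusted p = 0.647).

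Elovl2, which makes the long precursors of docosahexaenoic acid and is abundant in liver, was at 2.18, 1.09, 0 and 0 scaled reads in knockouts and at 20.01, 0.98, 0 and 0 in controls. These correspond to 4, 2, 0 and 0 recovered reads in knockouts and 41, 2, 0 and 0 in controls. Apart from control replicate 1 the gene was at or near 0 in both genotypes, and it did not pass the filter on low values, so no fold change is given. Elovl2 (NM_019423, from 41182382 to 41220403, minus strand) and Elovl7 (NM_029001, from 108214326 to 108287109, plus strand) both lie on chromosome 13, and Elovl3 (NM_007703, from 46131897 to 46135694, plus strand) lies on chromosome 19 apart from the Fads genes.

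Compared per kilobase of transcript, the order of the family was led by the same genes in both genotypes. In knockouts Elovl6 stood at 886 ± 284 scaled reads per kilobase, Fads3 at 797 ± 165, Elovl5 at 749 ± 39.5, Elovl1 at 545 ± 75.0, Fads1 at 537 ± 23.7 and Fads2 at 147 ± 20.5 (SD, n = 4). In controls the levels per kilobase were 1189 ± 678 for Elovl6, 865 ± 153 for Elovl5, 795 ± 98.3 for Fads3, 451 ± 36.1 for Elovl1, 389 ± 73.5 for Fads1 and 69.5 ± 16.8 for Fads2. In each genotype the ranges of the leading 3 overlapped one another along the order, as did those of Elovl1 and Fads1, while Fads2 stood apart from Fads1. At the low end, Elovl3 stood at 26.0 ± 18.9 scaled reads per kilobase in knockouts and 46.4 ± 60.0 in controls, and Elovl7 at 12.3 ± 2.22 in knockouts and 10.5 ± 1.18 in controls. Elovl4 had the lowest mean of all 10 in controls, at 1.20 ± 0.288, but Elovl2 was lower in 3 of the 4 controls and had a higher mean (1.37 ± 2.57) only through control replicate 1 (5.21). In knockouts Elovl4 stood at 15.6 ± 5.88, between Elovl3 and Elovl7, with ranges that overlapped both.

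As shares of the summed elongase level per kilobase, Elovl6, Elovl5 and Elovl1 together made up nearly all of it in each library. Elovl1 held 23.2 to 26.6% in knockouts and 11.05 to 23.8% in controls. Elovl4 held 0.435 to 1.27% in knockouts and 0.0378 to 0.0613% in controls, so that it stayed a minor transcript of the whole pad after its rise. Among the 3 desaturases the share of Fads2 was 9.24 to 11.4% in knockouts and 4.43 to 7.55% in controls, and that of Fads3 was 47.4 to 56.9% in knockouts and 52.9 to 69.8% in controls.

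**Figure D5:**
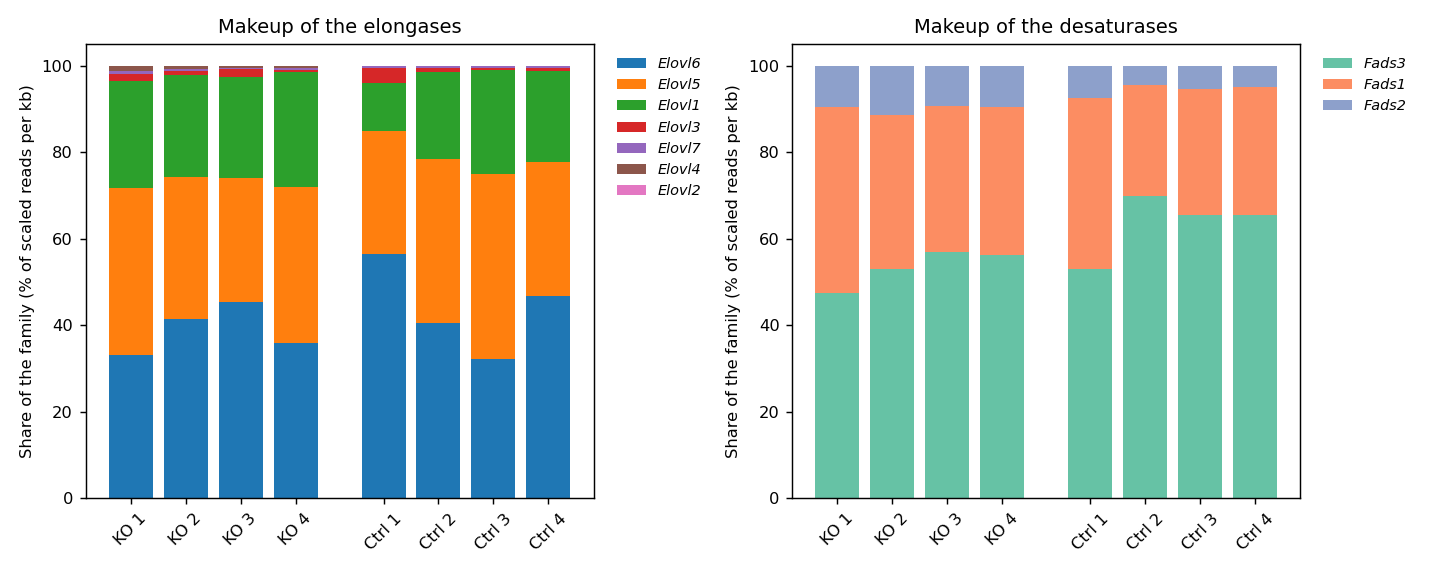
Share of each gene in the summed scaled reads per kilobase of the 7 elongases (left) and the 3 desaturases (right), in percent, for each library, Lsd1 KO (KO) before Control (Ctrl). Elovl6, Elovl5 and Elovl1 fill nearly all of the elongase bars, and Fads2 holds 9.24 to 11.4% of the desaturase bars in knockouts against 4.43 to 7.55% in controls.

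Some genes had profiles over the 8 libraries much like those of the members, measured as the mean absolute difference of log2 values after centring each gene on its own mean. Closest to Elovl4 were the mitochondrial carrier gene Slc25a21 (0.36), the urotensin receptor gene Uts2r (0.37) and Mmd2 (0.40), against a median of 1.65 over all tested genes. The profile of Elovl4 is mainly its gap between the genotypes, so genes chosen by it are bound to show that gap too, and their log2 fold changes of 2.96, 2.85 and 2.70 are given as a description. Like Elovl4, Slc25a21 (1.97 to 3.92 scaled reads in controls) and Uts2r (1.47 to 5.86) passed the filter on low values only through the knockouts. Closest to Fads2 were Got2, the mitochondrial aspartate aminotransferase (0.15), Rtn4rl2 (0.16) and Pqlc3 (0.16), against a median of 0.56. By the same choice their log2 fold changes, 1.19 for Got2, 0.86 for Rtn4rl2 and 0.79 for Pqlc3, were positive. Closest to Elovl2 were Cish, a feedback inhibitor of cytokine signalling (0.50), Ccdc136 (0.51) and Gbp11 (0.53), against a median of 1.06. Cish had 336, 301, 334 and 204 scaled reads in knockouts and 2898, 111, 182 and 148 in controls. It was picked for a high value in the library that is high for Elovl2, so its high control replicate 1 is a description only.

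The other genes of fatty acid handling moved little at the level of single genes. Over 9 lists with 83 genes, 78 were tested, 1 rose and 1 fell, where 1.64% of all tested genes were called. Their median log2 fold change was -0.12, against 0.02 over all tested genes, with 27 above and 51 below 0. The partners of the elongases in the elongation cycle, the ketoacyl reductase, dehydratases and enoyl reductase, held no called gene among 6 tested (median 0.06). Hsd17b12, the reductase, averaged 3114 scaled reads in knockouts and 4262 in controls (-0.44, limma adjusted p = 0.282), and Tecr, the enoyl reductase, 3700.3 in knockouts and 3158 in controls (0.22, adjusted p = 0.461). The other desaturases held none among 6 (median -0.04). Scd1, the stearoyl-CoA desaturase and the member with the most scaled reads, was at 390895 ± 110224 in knockouts and 435443 ± 103850.1 in controls (-0.17, adjusted p = 0.875). The cytochrome b5 electron carriers of desaturases held none among 5 (median -0.16).

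Of 10 acyl-CoA synthetases and transporters, 1 passed (median -0.14). Slc27a1, a fatty acid transport protein with synthetase activity, fell to 4186 ± 1066 scaled reads in knockouts, against 10293 ± 3690.3 in controls (log2 fold change -1.26, SE 0.26, limma adjusted p = 0.0495). That call was lost in 16 of 22 other settings. Acsl1, the member with the most scaled reads, was at -0.39 (adjusted p = 0.273). Of 5 ceramide synthases, which attach the very long chains to sphingoid bases, 1 passed (median 0.21). Cers4 rose to 811 ± 62.9 in knockouts, against 550.3 ± 66.3 in controls (0.56, SE 0.10, adjusted p = 0.0254), with no overlap between the groups. Its call was lost in 11 of 22 other settings. Cers2, the ceramide synthase with the most scaled reads, was at -0.11 (adjusted p = 0.642).

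No gene passed among 11 tested genes of fatty acid synthesis supply (median -0.24), 10 of phospholipid acyl remodelling (median -0.02) and 11 of peroxisomal handling of very long chains (median -0.16). In the last list 10 of 11 genes were below 0. Agpat3, the remodelling gene with the most scaled reads, was at -0.16 (limma adjusted p = 0.455). The 14 regulators of elongase and desaturase genes held none that passed (median -0.06), with log2 fold changes from -1.09 to 0.16. Of these 14, 11 were below 0 and 3 had an unadjusted limma p under 0.05. Srebf1, the sterol regulatory element-binding factor that drives lipogenic genes, had the most scaled reads of them. Srebf1 was at 12988 ± 1986 in knockouts and 13445 ± 3480.5 in controls (-0.03, limma adjusted p = 0.963). The lists without a called gene held between 0 and 3 genes each at an unadjusted limma p under 0.05, and all 9 lists together held 23 of 78, against 14.5% of all tested genes. DESeq2 called 10 of the 78 genes, against 776 of all 14591 tested genes, and edgeR called 1, against 218 of all.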

How the data were processed

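RNA-seq of 8 inguinal fat libraries was analysed. Alignment to mm10 used TopHat version 2 and counting used HOMER, per the submitters' processing notes and the design text of the series, where edgeR and DESeq 1.8.3 were also named, for changed genes. The annotation, strandedness and scaling method were not given in the sources used here. The authors deposited a signal per RefSeq accession that is a scaled read count. In each library 100% of values were whole multiples of 1 step (within 0.02 step), and dividing by the step gave the recovered reads. A step may stand for 1 end of a read pair, so depth is known only up to that factor.

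Of 23373 entries per file, 1 had no accession and a value of 0, 22523 matched RefSeq and 128 GENCODE M21 names, and 721 matched neither. After 12 second entries of a symbol were dropped, 23360 genes remained. The 14591 genes that reached 10 scaled reads in 4 or more libraries were tested with limma 3.58.1 (mean-variance trend, log2(value + 1), genotype alone, Benjamini-Hochberg threshold 0.05) in R 4.3.3. This scale understates the change of low genes. edgeR 4.0.16 and DESeq2 1.42.0 were run on recovered reads as alternatives, and edgeR called 218 genes, against 239 with limma. Levels per kilobase used GENCODE M21 transcript lengths. In data simulated for this comparison (14630 genes), limma recovered 31.2% of 1.5-fold, 64.0% of 2-fold and 98.0% of 4-fold changes, with 11 false calls of 154. The chi-square between replicate libraries, per degree of freedom, was 25.6 to 136, more than sampling noise gives, so each counted as 1 sample. Named were the members, Kdm1a, called and highest genes of each list, 3 nearest genes in profile and chromosomal neighbours. The single cell type markers with values and the synthesis genes set beside Elovl6 were chosen after their values were seen. The members and lists were chosen with earlier results of these data known. Results for some genes of the lists are not reported here.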

Additional observations from a re-analysis of the deposited data

Results flagged for a closer look

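In 80 groups of 4 libraries, 6 held a library whose distance from the nearest of the others was larger than Dixon's 95% critical value. Chance alone gives about 1 in 20 such groups. In control replicate 1, Elovl2 stood at 20.01 scaled reads, against 0 to 0.98 in the other controls, and Elovl3 at 255.75, against 17.14 to 45.21. The same library was far above the other controls for Me1, at 26703, against 6970 to 9993, and for Rtn4rl2, at 122.99, against 58.0 to 68.6. Krt5 at 0.49 in control replicate 1 and Krt14 at 0.98 in control replicate 2 were set against 0 in the other controls and rest on single reads or a pair of reads.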

How the results depend on the processing

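Elovl4 kept its call in 21 of 22 other settings (log2 fold change 2.53 to 3.68, and 3.11 to 3.56 without 1 library at a time), and lost it with knockout replicate 3 as the only knockout library (3.29). Fads2 kept its call in 17 of 22. It ranged from 0.997 to 1.25 without 1 library at a time, and was below the threshold with the B cell score (1.04), without knockouts 1 and 2 (1.16) and with knockout 3 alone (1.19). Settings that leave out several knockouts or use a skin score were chosen after seeing the data.

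The number of members called, 2, was 1 to 3 without 1 library at a time, 1 with the B cell score and without knockouts 1 and 2, and 0 with knockout 3 alone. Over all genes, 239 calls became 87 to 449 without 1 library, 776 with DESeq2, 97 without controls 1 and 2, 127 with the B cell score, 62 with the mammary score, 85 without knockouts 1 and 2 and 19 with knockout 3 alone. For the other fatty acid genes the 2 calls became 0 to 4 without 1 library, 10 with DESeq2, 1 without a filter, with TMM, with equal totals, with edgeR, with the B cell score and with the skin score, and 0 without controls 1 and 2, with the mammary score, without knockouts 1 and 2 and with knockout 3 alone.

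The sign turned for uncalled genes. Elovl3 was at -0.90 to 0.37 without 1 library, 0.69 without controls 1 and 2, 0.13 with the muscle score, 0.052 with the B cell score and 0.92 with knockout 3 alone. Elovl6 was at -0.59 to 0.022, 0.054 without controls 1 and 2, 0.047 with the muscle score, 0.0053 with the mammary score and 0.22 with knockout 3 alone. Elovl7 was at -0.20 with knockout 3 alone. Fads3 was at -0.11 to 0.13, 0.19 with the muscle, 0.024 with the mammary and 0.22 with the skin score, 0.22 without knockouts 1 and 2 and 0.28 with knockout 3 alone. Scd1 was at -0.36 to 0.058, and in the same settings at 0.16, 0.13, 0.11, 0.12 and 0.20. Agpat3 was at 0.0070 with knockout 3 alone. Srebf1 was at -0.17 to 0.13, 0.22 without controls 1 and 2, 0.12 with the muscle, 0.071 with the B cell, 0.17 with the mammary and 0.12 with the skin score, 0.14 without knockouts 1 and 2 and 0.22 with knockout 3 alone. The cause was not tested. TMM moved the median of all genes by -0.0162.

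No paired analysis was run, because the labels name no pairs and the numbers in the library titles are not shared between the genotypes. Whether any libraries were paired is thus unknown. Controls 1 and 2, left out together above, are the libraries whose title numbers lie apart from the other 6. At 5 to 9 reads per control library, counting error limits the fold of Elovl4.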
